A study of Mus musculus with 20 samples.

Results

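Cyp1a1, Cyp1b1, Cyp1a2 and Ahrr are the cytochrome P450 family 1 genes and the repressor gene of the aryl hydrocarbon receptor (AhR), and they were followed over a TCDD dose series in fetal mouse hearts. Every probe set that the platform annotation assigns to these 4 symbols was taken, dim ones included. That gave 6 probe sets of 12422: 2 for Cyp1a1, 2 for Cyp1b1, 1 for Cyp1a2 and 1 for Ahrr. A probe set is the group of short probes on an Affymetrix MG-U74Av2 array that reads out 1 transcript sequence. Its MAS5 signal is a linear intensity. For a gene with 2 probe sets, the main set has the higher mean log2 signal over all 20 arrays, TCDD arrays included. The other is called the second. Dams received corn oil alone, the control, or the dioxin TCDD at 1.5, 3 or 6 µg/kg by oral gavage on gestation day 14.5, and whole fetal hearts were collected on day 17.5. There were 8 control arrays and 4 arrays at each dose, 20 in all, and 19 of them carry treatment day 14.5 in their label. The label of array 1 at 1.5 µg/kg writes that day another way, and the array was kept in its group. The labels name no strain. Since they leave unstated if the RNA of an array came from a single heart, from pooled hearts or from a litter of its own, p-values speak of the variation among arrays and no more.

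Broad measures of the arrays were similar across the series. The first 4 and last 4 controls nevertheless differed by limma in 0.644% of all probe sets, as given below. Array medians lay between 171 and 210 signal units, and correlations between arrays over all probe sets lay between 0.957 and 0.986. Of 12 probe sets of cardiomyocyte markers such as Myh6 and Tnnt2, 11 lay above the array median in every array. The number of arrays limits the precision. All comparisons with control share the same 8 control arrays.

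AhR is a cytosolic transcription factor held in a chaperone complex until a ligand such as TCDD binds it. It then enters the nucleus, pairs with ARNT and binds short DNA elements with the core GCGTG. CYP1A1, CYP1A2 and CYP1B1 are haem enzymes of the endoplasmic reticulum that oxidise polycyclic aromatic compounds, and their genes are textbook AhR targets. CYP1A2 is known mainly from liver. AHRR resembles AhR, competes for ARNT and dampens the response, and its gene is itself an AhR target.

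The genes lie on 3 chromosomes in the mouse assembly GRCm38.p6. Cyp1a1 is on chromosome 9 at chr9:57687928-57703824 on the plus strand, and Cyp1a2 is its neighbour at chr9:57676937-57683655 on the minus strand. The start sites of their promoter records lie 13958 bp apart and point away from each other. Cyp1b1 is at chr17:79706940-79715061 and Ahrr at chr13:74211118-74292331, both on the minus strand. The 250 bases before each start site in the RefSeq promoter table of GRCm38.p6 are shown 5′ to 3′, because the 4 genes are read here as AhR targets. Capitals mark every GCGTG on the strand shown or, as CACGC, on the opposite strand. The windows are chr9:57697363-57697612 for Cyp1a1 (plus), chr17:79715062-79715311 for Cyp1b1 (minus), chr9:57683656-57683905 for Cyp1a2 (minus) and chr13:74292332-74292581 for Ahrr (minus). The Cyp1a1 window precedes a start site inside the gene record's span.
Cyp1a1: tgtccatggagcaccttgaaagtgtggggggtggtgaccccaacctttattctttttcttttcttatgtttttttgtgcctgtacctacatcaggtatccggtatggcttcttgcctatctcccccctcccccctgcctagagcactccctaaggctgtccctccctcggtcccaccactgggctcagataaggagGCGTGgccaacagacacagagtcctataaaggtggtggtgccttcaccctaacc
Cyp1b1: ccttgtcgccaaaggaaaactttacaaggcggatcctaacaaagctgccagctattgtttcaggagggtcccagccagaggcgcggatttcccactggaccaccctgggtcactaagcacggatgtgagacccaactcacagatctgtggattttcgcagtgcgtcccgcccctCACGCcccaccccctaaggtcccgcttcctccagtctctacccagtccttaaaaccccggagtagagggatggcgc
Ahrr: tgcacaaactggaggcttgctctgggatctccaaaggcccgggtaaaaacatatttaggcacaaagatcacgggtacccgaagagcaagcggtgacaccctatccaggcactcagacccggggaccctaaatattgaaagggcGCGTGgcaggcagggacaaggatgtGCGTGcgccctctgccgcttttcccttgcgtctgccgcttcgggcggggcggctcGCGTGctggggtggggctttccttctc
Cyp1a2: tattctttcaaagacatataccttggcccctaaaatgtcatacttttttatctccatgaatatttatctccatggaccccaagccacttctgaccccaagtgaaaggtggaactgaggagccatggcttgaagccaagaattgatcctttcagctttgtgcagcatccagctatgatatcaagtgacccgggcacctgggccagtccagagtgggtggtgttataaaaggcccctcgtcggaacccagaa

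GCGTG, searched on both strands, was found 1 time before Cyp1a1 (54 to 50 bases before the start), 1 time before Cyp1b1 (76 to 72 bases) and 3 times before Ahrr (from 107, 82 and 27 bases before the start). It was not found in the Cyp1a2 window. Of 32851 RefSeq promoters of the same length, 28.2% held GCGTG at least 1 time and 2.77% held it 3 or more times. The longer TNGCGTG, which contains GCGTG, was found only before Ahrr among the 4 genes (29 to 23 bases) and in 4.1% of all promoters. TATAAA, which overlaps neither, was found before Cyp1a1 (30 to 25 bases) and Cyp1a2 (29 to 24 bases) and in 12.4% of all promoters. These matches describe letters in a window. The textbook enhancer of mouse Cyp1a1 lies further upstream than the sequence shown, and no binding was measured.

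Cyp1a1 and Cyp1b1 transcripts rose at every TCDD dose, Ahrr was highest at 6 µg/kg, and Cyp1a2 and the second Cyp1a1 probe set showed no change that passed the test. The test was limma on log2(signal + 32), two-sided, with Benjamini-Hochberg adjustment over all 12422 probe sets and a threshold of 0.05. A pseudocount of 32 understates the fold change of dim probe sets. At 1.5 µg/kg 2 of the 6 probe sets passed, against a background of 0.0644% of all probe sets, and both were higher (0.0564% in that direction). At 3 µg/kg 2 passed against 0.0161%, a share made up of these 2 probe sets alone. At 6 µg/kg 2 passed against 0.0403%, again both higher (0.0242%). At each dose the probe sets that passed were Cyp1a1 and Cyp1b1.

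**Figure D1:**
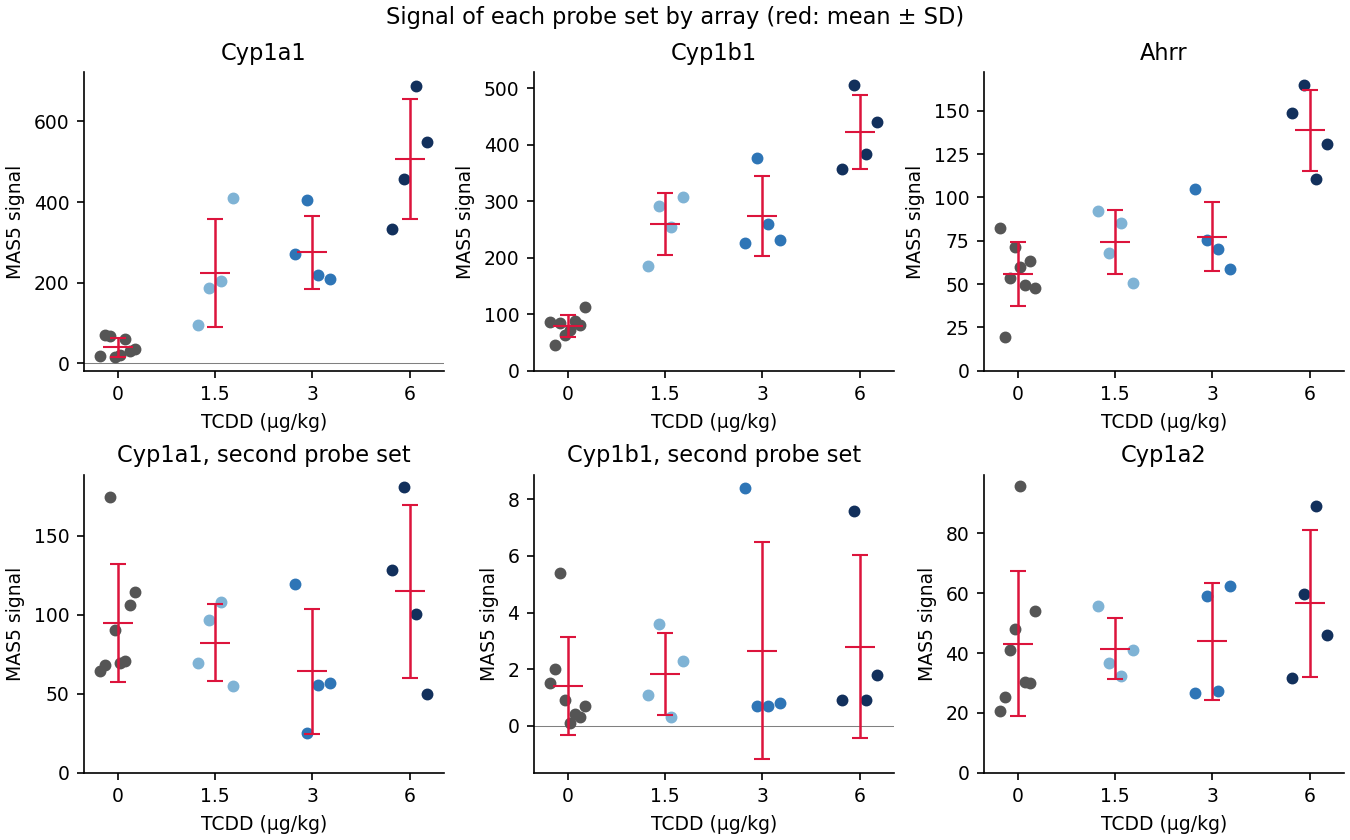
MAS5 signal (linear scale, each panel with its own axis) of the 6 probe sets against TCDD dose, with 1 point per array and the group mean ± SD in red. All TCDD arrays lie above all controls for Cyp1a1 and Cyp1b1, and the 4 arrays at 6 µg/kg lie above all other arrays for Ahrr, whereas the lower panels overlap between groups.

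Cyp1a1 encodes the most inducible of these enzymes, and its main probe set, 94715_at, was among the dimmer probe sets of control hearts. In controls its mean was 39.6, below the 94.6 of the second set, 161831_at. On 94715_at the 8 controls ranged from 15.4 to 70.6 signal units with a median of 32.5. At 1.5 µg/kg the 4 arrays read 93.7, 187.9, 205.3 and 411.1, at 3 µg/kg 270.1, 404.4, 217.8 and 208.4, and at 6 µg/kg 333.3, 456.7, 688.5 and 549.1. Every TCDD array therefore lay above every control array, although the doses overlapped with each other and the 1.5 µg/kg arrays spread over a 4.39-fold range. Group means were 39.6 ± 23.1 (SD, n = 8), 224.5 ± 133.7, 275.2 ± 90.3 and 506.9 ± 149.9 (SD, n = 4 each). The ratio of mean signals to control was 5.67, 6.95 and 12.8. On the log2(signal + 32) scale the rise at the 3 doses was 1.76 ± 0.29 (SE), 2.12 ± 0.29 and 2.93 ± 0.29, with limma adjusted p of 0.0147, 0.00134 and 5.4e-06. With a pseudocount of 1 the rise was 2.50, 2.93 and 3.82, and with 100 it was 1.15, 1.41 and 2.10. Without array 2 or array 4 at 1.5 µg/kg the rise at that dose was 1.79 or 1.451 and missed the threshold (limma adjusted p = 0.0773 and 0.0604). With controls 1 to 4 alone, adjusted p was 0.115 at 1.5 µg/kg and 0.0657 at 3 µg/kg.

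The median position of Cyp1a1 among all probe sets of its array moved from percentile 21.5 in controls to 50.1, 55.0 and 71.0 over the doses. Exact two-sided permutation tests of its log2 signal gave p = 0.00404 at each dose, which is the smallest value that 4 arrays against 8 allow.

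Cyp1b1 encodes the family member best known from tissues outside the liver. Its main probe set, 99979_at, ranged from 45.9 to 112.3 in the 8 controls with a median of 82.3. It read 185.9, 292.4, 254.1 and 307.2 at 1.5 µg/kg, 226.6, 377.2, 259.3 and 231.8 at 3 µg/kg, and 357.6, 505.8, 384.2 and 441.3 at 6 µg/kg. All 12 TCDD arrays lay above all 8 controls, and all 4 arrays at 6 µg/kg lay above all 4 at 1.5 µg/kg, while 3 of the 4 lay above every array at 3 µg/kg. Means were 79.2 ± 19.5 (SD, n = 8), 259.9 ± 54.2, 273.7 ± 70.5 and 422.2 ± 65.8 (SD, n = 4 each), or 3.28, 3.46 and 5.33 times control. On the log2 scale the rise was 1.39 ± 0.17 (SE), 1.454 ± 0.17 and 2.04 ± 0.17, with limma adjusted p of 0.000544, 0.000264 and 5.81e-07. At each of the 3 doses Cyp1b1 had the smallest p of all 12422 probe sets. Its rise passed the threshold under every alternative setting at every dose and without any single array.

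Only 3 of 12422 probe sets (0.0242%) had all 12 TCDD arrays above all 8 controls, and they were Cyp1a1, Cyp1b1 and Cd74, the invariant chain of class II histocompatibility molecules. For a single dose against control, the share of all probe sets without overlap in the upward direction was 0.749%, 0.258% and 0.588% from the lowest to the highest dose.

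**Figure D2:**
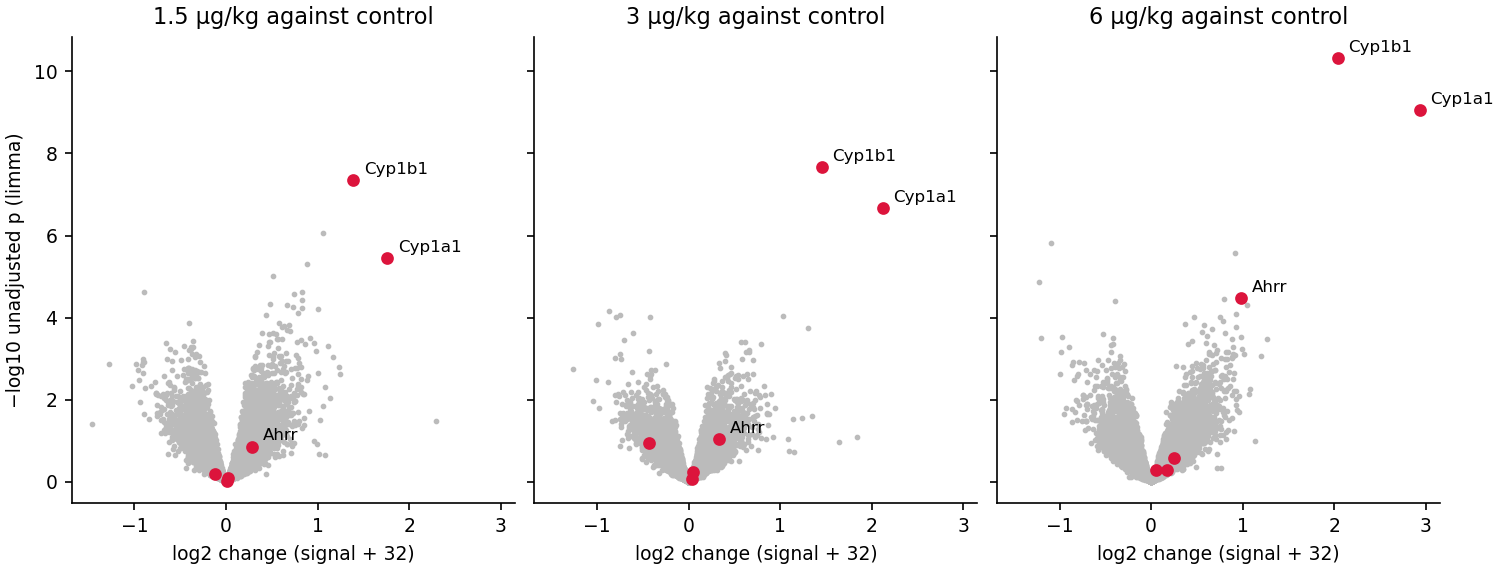
Each panel plots the log2 change (signal + 32) of all 12422 probe sets at 1 dose against −log10 of the unadjusted limma p, with the 6 probe sets of Cyp1a1, Cyp1b1, Cyp1a2 and Ahrr in red. Cyp1b1 has the smallest p at every dose, with changes of 1.39, 1.454 and 2.04, and Ahrr moves away from the bulk at 6 µg/kg.

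Ahrr, the repressor gene, was read out by 1 probe set, 101709_at, which was dim throughout. The controls ranged from 19.3 to 82.1 with a median of 56.4. The arrays read 92.1, 68.1, 85.3 and 50.7 at 1.5 µg/kg, 105.1, 75.2, 70.4 and 58.9 at 3 µg/kg, and 148.6, 165.0, 110.8 and 130.8 at 6 µg/kg. The arrays at 1.5 and 3 µg/kg overlapped with the controls, with 2 and 1 of 4 above every control. All 4 arrays at 6 µg/kg lay above all controls and above all arrays of both lower doses. Means were 55.8 ± 18.7 (SD, n = 8), 74.1 ± 18.6, 77.4 ± 19.7 and 138.8 ± 23.3 (SD, n = 4 each).

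The log2 differences of Ahrr from control were 0.29 ± 0.19 (SE), 0.33 ± 0.19 and 0.98 ± 0.19. None passed limma over all probe sets, with adjusted p of 0.643, 0.938 and 0.0611. At 6 µg/kg Ahrr ranked 6 of 12422 by p, and the adjusted p fell on either side of the threshold with the setting, from 0.0207 with a pseudocount of 100 to 0.172 over the alternative settings. An exact two-sided permutation test of this 1 probe set gave p = 0.00404, the smallest possible. Control array 2, at 19.3, stood apart from the other controls, and without it the difference at 6 µg/kg was 0.88 (limma adjusted p = 0.0462). Without control array 1 it was 1.04 (limma adjusted p = 0.0456). Of the 20 fits that left out 1 array only these 2 passed, and limma adjusted p ranged up to 0.206.

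The second Cyp1a1 probe set, 161831_at, did not show the rise of the first. Its controls ranged from 64.5 to 174.1 with a median of 80.2, and it read 69.3, 96.9, 108.0 and 55.2 at 1.5 µg/kg, 119.1, 25.0, 55.7 and 57.1 at 3 µg/kg, and 128.4, 180.8, 100.5 and 49.7 at 6 µg/kg. All groups overlapped, and 1 of the 12 TCDD arrays, array 2 at 6 µg/kg, lay above every control. Log2 differences were −0.13 ± 0.26 (SE), −0.44 ± 0.26 and 0.18 ± 0.26, with limma adjusted p of 0.915, 0.946 and 0.867. The positions of the probes within the transcripts were not analysed here.

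The second Cyp1b1 probe set, 161368_r_at, read between 0.1 and 8.4 signal units in all 20 arrays, with group medians between 0.75 and 1.7. At these values it carries no order between groups, and no fold change is given for it. The suffix _r_at marks a set in which Affymetrix could not place probes under all of its usual selection rules.

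Cyp1a2, the liver enzyme of the family, was dim as well. Its controls on 102998_at ranged from 20.7 to 95.8 with a median of 35.8, and it read 55.7, 36.6, 32.3 and 40.9 at 1.5 µg/kg, 26.8, 59.1, 27.4 and 62.3 at 3 µg/kg, and 31.6, 59.7, 89.0 and 46.0 at 6 µg/kg. No TCDD array lay above the highest control. Log2 differences were 0.01 ± 0.22 (SE), 0.03 ± 0.22 and 0.25 ± 0.22, with limma adjusted p of 0.992, 0.995 and 0.768. The 95% interval at 6 µg/kg ran from −0.20 to 0.71, and a rise within it was not detectable at this signal. The rises measured at that dose for Cyp1a1 and Cyp1b1 lay outside it. The Ahrr estimate did too, but its own interval, 0.59 to 1.38, overlapped that of Cyp1a2. In the comparison within arrays described below, Cyp1a2 differed from Ahrr by −0.73 at 6 µg/kg and did not pass (exact permutation adjusted p = 0.0878). That adjusted p was 0.133 with a pseudocount of 1 and 0.0455 with 100. The sign at 1.5 and 3 µg/kg turned with other settings.

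**Figure D3:**
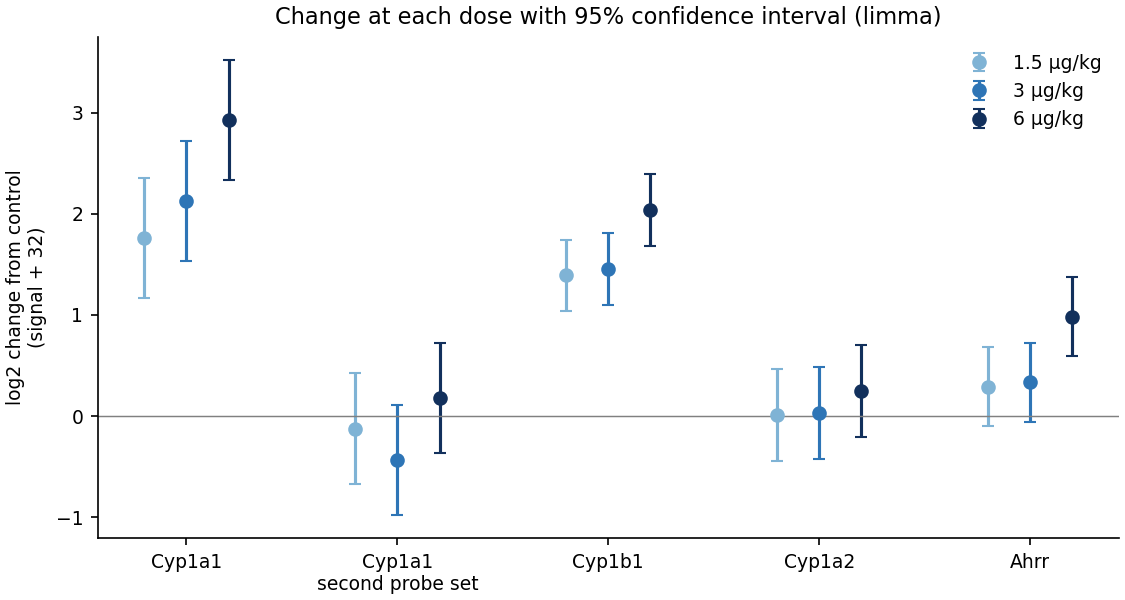
Points give the log2 change from control (signal + 32) of 5 probe sets at each dose and bars give the 95% confidence interval from limma. The intervals of Cyp1a1 and Cyp1b1 exclude 0 at every dose and that of Ahrr at 6 µg/kg only, while those of Cyp1a2 and the second Cyp1a1 probe set include 0 throughout.

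Cyp1a1 and Cyp1b1 rose with dose over the whole series. The fitted straight-line slope on dose was 0.49 ± 0.06 log2 units per µg/kg (SE) for Cyp1a1 and 0.33 ± 0.04 for Cyp1b1, each with a limma adjusted p of 0.000204, and these were the only 2 of 12422 probe sets to pass (0.0161%). Within the 3 TCDD doses alone the slopes were 0.26 and 0.15, with limma adjusted p of 0.0711 and 0.0754. Neither passed there, while 141 of 12422 probe sets did. Over the whole series Ahrr had a slope of 0.16 ± 0.03 with a limma adjusted p of 0.0723. That p fell under the threshold in 5 of 13 alternative settings (as low as 0.0288 with a pseudocount of 100). Departure from the straight line passed for Cyp1b1 (limma adjusted p = 0.0497, against a background of 0.105%) and not for Cyp1a1 (0.199) or Ahrr (0.904). The Cyp1b1 call is marginal: it was lost under 8 of 14 alternatives and in 18 of 20 fits that left out 1 array.

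On the linear scale the gain in mean signal over control was divided by the whole dose. For Cyp1a1 it was 123.3 signal units per µg/kg at the lowest dose, 78.5 at the next and 77.9 at the highest. Cyp1b1 gained 120.5, 64.9 and 57.2 per µg/kg. Ahrr gained 12.2, 7.21 and 13.8. These ratios run from control and are not steps between doses. Mean Cyp1a1 signal went from 224.5 to 275.2 and 506.9 over the doses, and that of Cyp1b1 from 259.9 to 273.7 and 422.2. Group means of log2 signal were higher at each dose step for 5 of the 6 probe sets, all but the second Cyp1a1 set, and for 3.62% of all probe sets. The 5 include Cyp1a2 and the second Cyp1b1 set, whose groups overlapped throughout, so this order alone does not set Cyp1a1, Cyp1b1 and Ahrr apart.

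None of the 6 probe sets passed limma for any step between TCDD doses, and at an unadjusted p under 0.05 the counts were 0 from 1.5 to 3 µg/kg and 3 for either step to 6 µg/kg (Cyp1a1, Cyp1b1 and Ahrr). From 1.5 to 3 µg/kg the log2 difference was 0.36 ± 0.33 (SE) for Cyp1a1, 0.06 ± 0.20 for Cyp1b1 and 0.05 ± 0.22 for Ahrr, and no probe set of the array passed this step or that from 3 to 6 µg/kg (0.0% each, with 401 and 1397 of 12422 at an unadjusted p under 0.05). From 3 to 6 µg/kg the differences were 0.81 ± 0.33, 0.59 ± 0.20 and 0.65 ± 0.22, with limma adjusted p of 0.373, 0.294 and 0.294. From 1.5 to 6 µg/kg they were 1.17 ± 0.33, 0.65 ± 0.20 and 0.69 ± 0.22, with limma adjusted p of 0.13, 0.155 and 0.163, against a background of 0.0725%. In that comparison 1627 of 12422 probe sets (13.1%) had an unadjusted p under 0.05. The groups at 6 and 3 µg/kg did not overlap for Ahrr (4.41% of all probe sets did this upward), and those at 6 and 1.5 µg/kg did not overlap for Cyp1b1 and Ahrr (3.36%). For these 3 comparisons exact two-sided permutation tests gave p = 0.0286, the smallest that 4 arrays against 4 allow, before any adjustment. The Cyp1a1 steps to 6 µg/kg gave exact p = 0.0571 each.

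The controls came with replicate numbers 1 to 8 while the design text gives 4 replicates a dose, so the first 4 were set against the last 4. None of the 6 probe sets passed limma in that comparison, while 0.644% of all probe sets did. That share was larger than the 0.0644%, 0.0161% and 0.0403% that passed at 1.5, 3 and 6 µg/kg against control. At an unadjusted p under 0.05 the counts were 0 of the 6 and 1491 of all 12422 probe sets. Cyp1a1 differed by 0.05 ± 0.34 (SE) on the log2 scale, Ahrr by −0.03 ± 0.22 and Cyp1b1 by −0.25 ± 0.19.

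The responses of the probe sets were then compared with each other within arrays, by exact two-sided permutation tests of the difference between 2 log2 signals, dose against control. There were 15 pairs at 3 doses, or 45 tests, with Benjamini-Hochberg adjustment over them. The 15 tests that involve the second Cyp1b1 probe set, which reads at the bottom of the scale, are not used, and 19 of the other 30 passed. The rise of Cyp1a1 on its main probe set exceeded that on its second by 1.89, 2.56 and 2.76 over the doses, with an exact permutation adjusted p of 0.00826 each. Thus the 2 probe sets of 1 gene disagreed by more than the spread between arrays. On the main probe sets the rise of Cyp1a1 exceeded that of Cyp1b1 by 0.37 (95% interval −0.38 to 1.12) at 1.5 µg/kg, 0.67 (0.0046 to 1.34) at the middle dose and 0.89 (0.17 to 1.62) at the top dose. The exact permutation adjusted p were 0.379, 0.097 and 0.049, and the last was 0.0582 with a pseudocount of 1. The second Cyp1a1 set differed from Cyp1b1 by −1.52, −1.89 and −1.86 over the doses (exact permutation adjusted p = 0.00826 each).

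Cyp1b1 rose more than the repressor Ahrr at every dose. On its main probe set Cyp1a1 did so at the 2 higher doses, and at 1.5 µg/kg the call depended on the pseudocount. The second Cyp1a1 probe set went the other way. Cyp1b1 exceeded Ahrr by 1.10, 1.12 and 1.06 over the doses, with exact permutation adjusted p of 0.0158, 0.00826 and 0.00826. The main Cyp1a1 probe set exceeded Ahrr by 1.47, 1.79 and 1.95, with exact permutation adjusted p of 0.052, 0.00826 and 0.00826. The first was 0.0291 with a pseudocount of 100 and 0.0741 with 1. The second Cyp1a1 set differed from Ahrr by −0.41, −0.77 and −0.81, with exact permutation adjusted p of 0.204, 0.052 and 0.049. The last was 0.053 with a pseudocount of 1 and 0.0455 with 100. On its main probe set Cyp1a1 also exceeded its chromosomal neighbour Cyp1a2 at each dose, by 1.75, 2.09 and 2.68 (exact permutation adjusted p = 0.0227, 0.00826 and 0.00826). The second Cyp1a1 set did not pass against Cyp1a2 at any dose.

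Within groups, arrays high in Cyp1a1 tended to be low in Ahrr. Over the deviations of 20 arrays from their group means, Pearson's r was −0.63 (permutation p = 0.00425, adjusted over 3 pairs 0.0128) and Spearman's rho −0.57 (permutation p = 0.0196, adjusted 0.0587). It was −0.56 without the 2 arrays farthest from the Cyp1a1 median, arrays 1 and 4 at 1.5 µg/kg, −0.77 in the 8 controls and −0.53 in the 12 TCDD arrays. The order differed between doses. At 1.5 µg/kg array 4 had the highest Cyp1a1 signal, 411.1, and the lowest Ahrr signal, 50.7, while array 1 had the lowest Cyp1a1 signal, 93.7, and the highest Ahrr signal, 92.1. At 3 µg/kg array 4 had the lowest signal of both, 208.4 for Cyp1a1 and 58.9 for Ahrr, and array 1, with the next to highest Cyp1a1 signal, 270.1, had the highest Ahrr signal, 105.1. For Cyp1a1 and Cyp1b1 r was 0.36 (permutation p = 0.168, adjusted 0.252) and rho 0.37 (permutation p = 0.145, adjusted 0.217), with r of 0.13 without the farthest 2 arrays. It was −0.17 in the controls and 0.69 in the TCDD arrays. For Cyp1b1 and Ahrr r was 0.12 (permutation p = 0.651) and rho −0.13 (permutation p = 0.62), and r was −0.29 without the farthest 2 arrays.

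**Figure D4:**
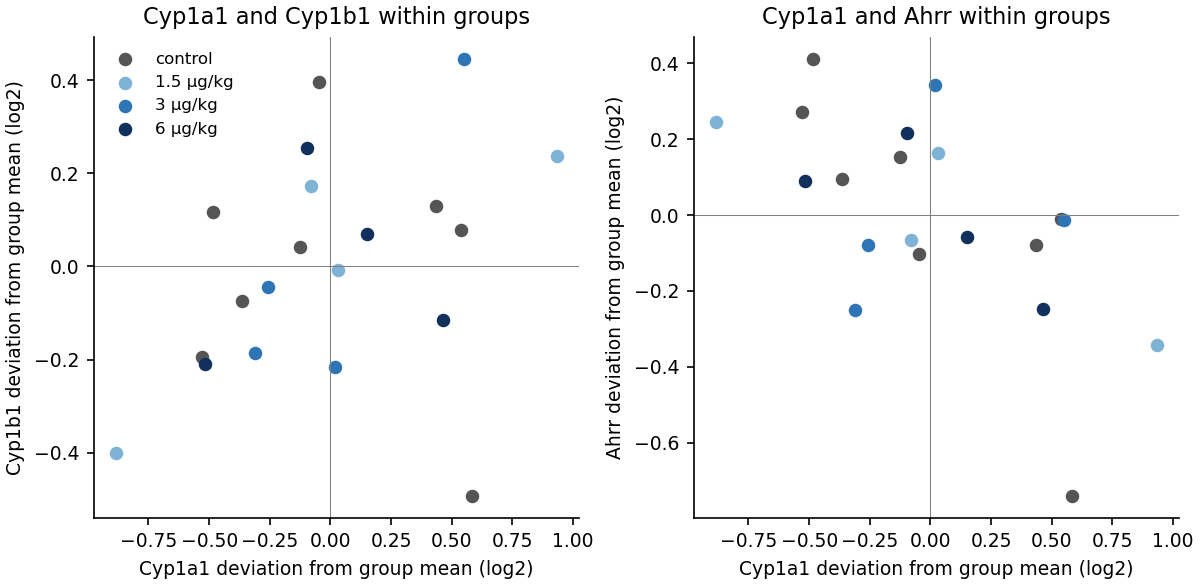
Each point is 1 array, placed by the deviation of its log2(signal + 32) from its group mean, for Cyp1a1 against Cyp1b1 (left) and Cyp1a1 against Ahrr (right). The right panel falls from upper left to lower right (r = −0.63, n = 20), and the left panel has no such order over all arrays (r = 0.36).

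Among other genes of the pathway, no probe set of the 4 lists passed limma at any dose. The lists are described by counts beside all probe sets, of which 51.3% were higher than control at 1.5 µg/kg, 46.9% at the middle dose and 55.4% at the top dose, with median log2 changes of 0.01, −0.01 and 0.02. At an unadjusted p under 0.05 stood 10.2%, 5.36% and 8.87% of all probe sets, against which the unadjusted counts of the lists are to be read. Of 17 probe sets of 15 further AhR targets and detoxification genes, 12, 13 and 16 were higher, with medians of 0.12, 0.17 and 0.21, and 1, 0 and 3 had an unadjusted p under 0.05. Tgm2, a transglutaminase, differed from control by −0.26, 0.04 and 0.44 over the doses (SE 0.17 each). Aldh3a1, an aldehyde dehydrogenase, differed by 0.30, −0.42 and 0.46 (SE 0.26) on its brighter probe set and by 0.06, −0.05 and 0.08 (SE 0.11) on the other. Serpinb2, a protease inhibitor, differed by 0.23, 0.41 and 0.46 (SE 0.20) and Slc7a5, an amino acid transporter, by 0.30, 0.17 and −0.0061 (SE 0.12). The smallest limma adjusted p among these was 0.408, for Slc7a5 at 1.5 µg/kg. Nqo1 (a quinone reductase) and Tiparp (an ADP-ribosyltransferase that dampens AhR), named here for their place in the pathway, showed log2 differences at 6 µg/kg of 0.28 and 0.17 on the 2 Nqo1 probe sets and 0.21 for Tiparp.

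AhR itself is part of a complex with partners and chaperones, in which no probe set passed. Of 11 probe sets of 9 of its genes, 7, 7 and 4 were higher than control, the median at 6 µg/kg was −0.11, and 0, 0 and 2 had an unadjusted p under 0.05. Hsp90aa1, the chaperone that holds AhR in the cytosol, differed by 0.24 ± 0.09 (SE) at 6 µg/kg on its bright probe set and by 0.46 ± 0.21 on a dim one, with limma adjusted p of 0.478 and 0.535. The coactivator genes Ncoa1 and Ncoa3 differed by −0.20 and 0.27 at 6 µg/kg, and the phosphatase gene Ppp5c by −0.22. Ahr itself, named for its role, had mean signals of 87.4 ± 28.8 (SD, n = 8) in controls and 90.7 ± 21.7, 106.2 ± 40.4 and 73.7 ± 25.6 (SD, n = 4 each) over the doses, with log2 differences of 0.06, 0.21 and −0.17 that did not pass.

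Of 6 probe sets of genes that serve microsomal P450 enzymes, 4, 5 and 3 were higher than control, with 2, 1 and 0 at an unadjusted p under 0.05. Hmox1, which degrades haem, differed by 0.36 ± 0.13 (SE) at 1.5 µg/kg and 0.35 ± 0.13 at 3 µg/kg, and Cyb5r3, a cytochrome b5 reductase, by 0.28 ± 0.09 at 1.5 µg/kg (limma adjusted p = 0.305, 0.878 and 0.264). At 6 µg/kg Pgrmc1, a haem-binding membrane protein, differed by −0.13 and Cyb5a, cytochrome b5, by 0.10. Of 42 probe sets of 37 other P450 genes, 22, 24 and 29 were higher than control, 4, 2 and 2 had an unadjusted p under 0.05, and the median at 6 µg/kg was 0.11. Cyp2s1 is counted both here and among the further targets. The 4 with the smallest joint p were Cyp2b13, Cyp2d9, Cyp4a10 and Cyp2e1, which at 6 µg/kg differed by 0.51, −0.11, 0.42 and 0.59, with limma adjusted p of 0.559, 0.895, 0.527 and 0.473. Several of the P450 genes belong to families of near-identical copies, so a probe set of such a gene may read more than 1 of them.

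No gene measured beside the members passed. Within 250 kb of the 4 genes the array measured 8 other genes with 13 probe sets, and 0 passed at any dose by limma (0, 2 and 0 at an unadjusted p under 0.05 over the doses, beside 10.2%, 5.36% and 8.87% of all probe sets), with log2 differences at 6 µg/kg from −0.15 to 0.46. Csk, a kinase gene and the nearest measured gene on the Cyp1a2 side, differed by 0.20 ± 0.12 (SE) at 6 µg/kg on its brighter probe set, and Clk3, a kinase gene nearest on the Cyp1a1 side, by −0.10 ± 0.10. Beside Ahrr the nearest was Pdcd6, a calcium-binding protein gene, at 0.10 ± 0.10 on its brighter probe set. No gene within that distance of Cyp1b1 was measured.

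The probe sets whose log2 signal followed Cyp1a1 and Cyp1b1 most closely over the 20 arrays were described without a test. Cyp1a1 and Cyp1b1 correlated with each other at r = 0.93. Among 7319 other probe sets the closest to Cyp1a1 were Cd74 (r = 0.85), the complement gene C1qa (0.81), the class I histocompatibility gene H2-K1 (0.79), Plac8 (0.78) and the collagen gene Col6a1 (0.78). The closest to Cyp1b1 were Cd74 (0.88), the galectin gene Lgals3 (0.84), Plac8 (0.82), Col6a1 (0.81) and C1qa (0.79). All share the 4 groups, and a correlation over all arrays mostly carries the difference between TCDD and control. The mean Cd74 signal was 132.6 ± 22.9 (SD, n = 8) without TCDD and 241.5 ± 45.7, 220.4 ± 45.3 and 278.2 ± 37.2 (SD, n = 4 each) over the doses, with log2 differences of 0.73, 0.61 and 0.92 and limma adjusted p of 0.055, 0.38 and 0.00841.

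The summed signal of leukocyte markers was higher in TCDD arrays than in controls, with 0, 0 and 1 of its probe sets past the test over the doses. The sum over 17 probe sets of 12 genes ranged from 3968 to 4552 in controls, then 4902 to 5771, 5069 to 5553 and 5563 to 6134 over the doses, so all 12 TCDD arrays lay above all controls. The list was chosen with earlier results of these data known and holds Cd74, which shows the same order by itself. The separation of the sums is therefore a description and not a test. Of the 17 probe sets, 15, 15 and 17 were higher than control, and the 1 that passed was Cd74 at 6 µg/kg. At an unadjusted limma p under 0.05 stood 5, 8 and 11 of the 17, beside 10.2%, 5.36% and 8.87% of all probe sets. Among the defining markers, Fcer1g and 1 of the 2 Lyz2 probe sets read near the bottom of the scale, with means of 21.8 and 23.8 for Fcer1g and 9.4 for that Lyz2 probe set at 6 µg/kg. In whole hearts, more cells of a type and more RNA per cell cannot be told apart, and the part of leukocytes in the rise of the Cyp1 genes was not tested. The summed signal of endothelial markers (13 probe sets, 9 genes) ranged from 14430 to 18350 in controls, and no TCDD array lay above the highest control.

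Lung epithelial transcripts varied widely between arrays within every group. Of 9 markers 4 were measured, Sftpb, Sftpc, Sftpd and Scgb1a1, and their summed signal ranged from 224 to 2803 in controls, then 591 to 3811, 325 to 4544 and 326 to 3828 over the doses. At 6 µg/kg the order of the 4 arrays by Cyp1a1 was also their order by lung markers, and at 1.5 µg/kg the array with the most lung signal had the highest Cyp1a1, 411.1, and the one with the least had the lowest, 93.7. At 3 µg/kg the array with the most lung signal had the lowest Cyp1a1, 208.4. With the lung score as a covariate the Cyp1a1 rise was 1.63, 1.90 and 2.84 and the Cyp1b1 rise 1.31, 1.31 and 1.98, and both passed limma at every dose, while Ahrr differed by 1.04 at 6 µg/kg (limma adjusted p = 0.0337). Liver markers (10 probe sets, 8 genes) summed to 672 to 1903 in controls, 1073 to 3573, 1257 to 1554 and 872 to 2051 over the doses, with 1, 0 and 1 array above every control.

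**Figure D5:**
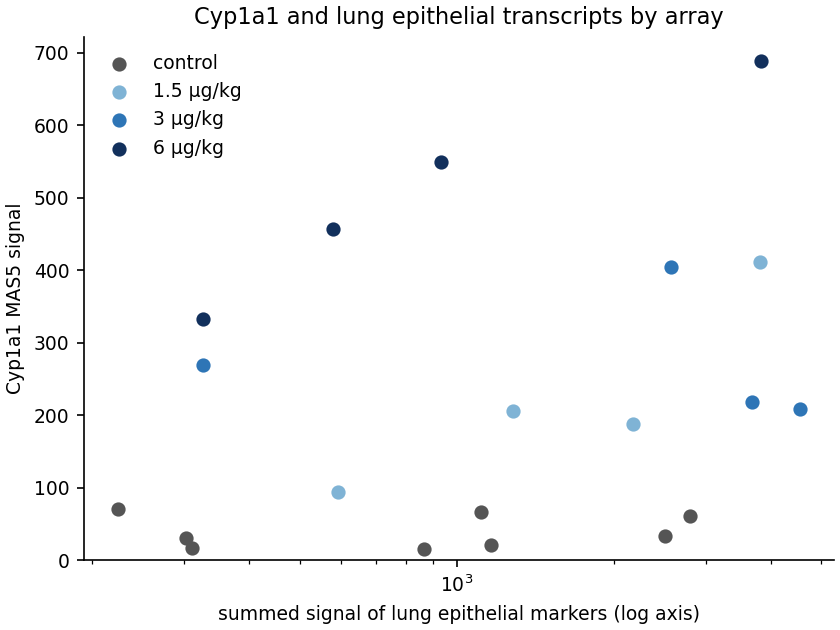
Cyp1a1 MAS5 signal (linear) of each array against the summed signal of 4 lung epithelial marker probe sets (log axis), coloured by group. Control arrays stay at or below 70.6 at lung signals from 224 to 2803. Every TCDD array lies above them, at lung signals from 325 to 4544. The part of lung tissue in the Cyp1a1 signal was not tested.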

How the data were processed

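RNA of whole fetal hearts was hybridised to 20 Affymetrix MG-U74Av2 arrays (8 controls, 4 at each TCDD dose). Per the labels' protocols, total RNA was extracted with Trizol, cDNA synthesised with the Superscript Choice system and cRNA labelled with ENZO reagents. The deposited values are MAS5 signals (intensity on a linear scale), per the submitters' processing notes; the MAS5 version is not given in the sources used here, and no detection calls were used. The 2% trimmed mean was 500.3 in every array as deposited, so the arrays had been scaled alike.

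The 66 AFFX controls of 12488 probe sets were left out. Signals were rescaled to a trimmed mean of 500, taken as log2(signal + 32) and fitted without a filter on dim probe sets, with limma 3.58.1 under R 4.3.3 (lmFit and contrasts.fit, with eBayes moderation along an intensity trend). The 20 arrays shared a single fit. Tests were two-sided and adjusted by Benjamini-Hochberg over 12422 probe sets, with a threshold of 0.05. Exact permutation tests of single probe sets used scipy 1.17.1, and correlations used 100000 permutations within groups. Plots used matplotlib 3.10.9. The limma steps were tested on simulated data first.

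Symbols came from the platform annotation (10833 probe sets with 1 symbol, 396 with several, 1193 with none) and locations and promoters from RefSeq tables of GRCm38.p6, in which all 4 genes matched. The 4 genes, the lists and the tests were chosen with earlier results of these data known. Besides the 4 genes, the text names the 5 probe sets with the highest correlation to Cyp1a1 and to Cyp1b1, up to 4 genes of each list by the joint F test of the doses, and the nearest measured genes within 250 kb. The correlation search kept probe sets with at least 4 arrays at or above the 40th percentile of the array.

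Arrays with the same replicate number were not visibly more alike. Over 24 same-numbered pairs from different groups the correlation of deviations from group means ranged from −0.17 to 0.14, with 2 pairs over 0.1. Over 72 pairs with different numbers it ranged from −0.19 to 0.25, with 8 over 0.1. A shared litter or day was not tested. Alternatives were quantile normalization, signals as deposited, pseudocounts of 1 and 100, filters at the 40th and 60th percentiles, either set of 4 controls, the replicate block, the 3′ to 5′ ratio and the lung score as covariates, no intensity trend, array weights, only the groups compared, exact permutation, log2(dose + 1), the TCDD doses alone, and each array left out.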

Additional observations from a re-analysis of the deposited data

Results flagged for a closer look

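In 4 of 24 checks, 1 array stood apart from the others of its group by Dixon's test, and chance flags about 1 in 20 groups. For Ahrr, control array 2 read 19.3 while the other 7 controls read 47.8 to 82.1. The second Cyp1b1 probe set read 5.4 in control array 3, 8.4 in array 1 at 3 µg/kg and 7.6 in array 2 at 6 µg/kg, all at the bottom of the scale, where the other arrays of those groups read 2.0 or less.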

How the results depend on the processing

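The rise of Cyp1b1 at each dose and of Cyp1a1 at 6 µg/kg passed under all 15 alternative settings and without any single array, with ranges of 1.00 to 1.72, 1.05 to 1.79 and 1.54 to 2.43 for Cyp1b1 over the doses and 2.10 to 3.82 for Cyp1a1. Cyp1a1 at 1.5 µg/kg missed the limma threshold with controls 1 to 4 only (1.74, adjusted p = 0.115), the replicate block, which used controls 1 to 4 (1.74, 0.147), the 3′ to 5′ covariate (1.63, 0.0587) and only the groups compared (1.76, 0.0533), and each left 1 member passing. At 3 µg/kg it missed with controls 1 to 4 (2.10, 0.0657) and the block (2.10, 0.068), again leaving 1. Without 1 array the count at 1.5 µg/kg was 1 to 2, with Cyp1a1 at 1.451 to 2.06. Ahrr at 6 µg/kg passed with a pseudocount of 100 (0.62), the lung covariate (1.04), no trend (0.98), array weights (0.99) and the exact permutation test (0.98). Without 1 array it ranged from 0.88 to 1.07 and passed in 2 of 20 fits. Unadjusted exact permutation tests passed 1 member from 3 to 6 µg/kg and 2 from 1.5 to 6 µg/kg. With the TCDD doses alone 0 members passed the trend, while 141 of all probe sets did. Departure from a straight line passed for 0 members under quantile normalization, a pseudocount of 100, controls 1 to 4, the block, either covariate, no trend and log2(dose + 1), and for 0 to 1 without 1 array. Ahrr's trend passed with a pseudocount of 100 (adjusted p = 0.0288), controls 1 to 4 (0.0445), the block (0.0484), the lung covariate (0.0363) and no trend in the spread (0.0404), and the block changed no other call.

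Small differences turned sign. Cyp1a2 was −0.0049 (pseudocount 100), −0.15 (controls 5 to 8), −0.11 (lung) and −0.0314 (weights) at 1.5 µg/kg, and −0.13, −0.18 and −0.11 under the last 3 at 3 µg/kg. The second Cyp1a1 probe set was 0.0222 at 1.5 µg/kg with the 3′ to 5′ covariate, and Cyp1b1 from 1.5 to 3 µg/kg −0.0028 with the lung covariate. Without 1 array, the ranges that crossed 0 were −0.0875 to 0.14 (Cyp1b1) and −0.0683 to 0.13 (Ahrr) from 1.5 to 3 µg/kg, −0.0282 to 0.43 (second Cyp1a1, 6 µg/kg), and −0.0788 to 0.13 and −0.0839 to 0.15 (Cyp1a2, 1.5 and 3 µg/kg). The causes were not tested.

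Over alternatives, all probe sets called ranged from 2 to 136 at 1.5 µg/kg, 1 to 24 at 3 µg/kg and 2 to 130 at 6 µg/kg. The choice of controls gave both ends: controls 5 to 8 alone called 136, 24 and 2 over the doses, and controls 1 to 4 alone 2, 1 and 130. Passing pair differences, without the second Cyp1b1 set, ranged from 18 to 21 of 30. Low signal limits Cyp1a2, Ahrr and both second probe sets, of which the filter at the 40th percentile kept only the second Cyp1a1 set.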
